A study of Mus musculus with 2 samples.

Results

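The genes described here are the nuclear-encoded subunits of oxidative phosphorylation, chosen by gene symbol: the Nduf genes with an a, b, c, s or v and a number (complex I), Sdha to Sdhd (complex II), the Uqcr genes (complex III), the Cox4 to Cox8 genes (complex IV) and the Atp5 genes (ATP synthase), without names ending in Rik or -ps. The rule uses no measured value. It took 83 of the 32285 genes in the deposited matrices, 36 of complex I, 4 of complex II, 8 of complex III, 18 of complex IV and 17 of ATP synthase. A UMI was found for each of the 83, and 80 had at least 100 UMIs among kept cells of each library. The other 3 were the isoform genes Cox6a2, Cox7b2 and Cox8c.

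The data are 10x Genomics 3' single-cell RNA libraries from the inner ear of wild-type CBA/CaJ mice aged 4 to 6 weeks, a strain often used in hearing research for its late hearing loss. In the AAV-Isl1 plus noise group, the cochlea was treated with an AAV vector (a viral gene carrier) for ISL1, a transcription factor, and then exposed to noise. In the noise-only group, the ears were the untreated opposite ears of the same mice. Both groups were exposed to noise of 105 dB at 1 to 20 kHz for 2 h and the tissue, labelled sensory epithelium of the cochlea, was dissected 2 days later. The vector's promoter is not given in the sources used here, and no ears without noise are among the samples. Each group is 1 library of ears pooled from 5 mice, so there is no replicate and no test between groups. All intervals below are 95% intervals that cover counting error only, and differences between ears, pools or captures cannot be told apart from an effect of the vector.

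Oxidative phosphorylation passes electrons from NADH through complex I, or from succinate through complex II, to complex III and then to oxygen at complex IV. The proton gradient built on the way drives ATP synthase. Complexes I, III and IV and ATP synthase combine nuclear-encoded subunits with a few that are read from mitochondrial DNA, whereas complex II is nuclear-encoded throughout. Several complex IV subunits come as pairs of genes, a widely expressed one and one known from particular tissues: Cox4i2 from lung and as an oxygen-responsive form, Cox6a2, Cox7a1 and Cox8b from heart and skeletal muscle, Cox6b2, Cox7b2 and Cox8c from testis. In the cochlea, marginal cells of the stria vascularis, which secrete potassium into endolymph, are rich in mitochondria, and spiral ganglion neurons and hair cells also have a high demand for ATP. Ndufa4, named after complex I and counted there by its name, is known as a subunit of complex IV.

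After filters on cells, 18756 of 21068 barcodes were kept in the noise-only library and 21845 of 24209 in the AAV-Isl1 library, with 1048 and 1087 UMIs at the median. These numbers lie far above the about 1600 cells that the labels say were loaded for a target of 1000, so kept barcodes are called cells here without knowing that each was 1 whole cell. The libraries share 145 barcodes. The cells formed 28 clusters, made without the 83 members, without mitochondrial genes and without Isl1, and 20 clusters were named by markers into 14 classes. The 20 populations with at least 100 cells in each library (13 named classes and 7 unnamed clusters) are compared below. The hair cell-like class was small, with 90 and 321 cells in the noise-only and AAV-Isl1 libraries, although the tissue label is sensory epithelium. It carried 12 of 15 hair cell markers, including Pou4f3, Myo7a, Otof and Tmc1. The stria marginal or dark cell-like class (388 and 535 cells) carried 9 of 11 markers, including Kcne1 and Kcnq1, and the neuron-like class (810 and 1553 cells) was 3 clusters with 9, 9 and 10 of 14 markers. Isl1 itself was at 80.2 CPM (UMIs of the gene per 1000000 UMIs) over all kept noise-only cells and 112 CPM over all kept AAV-Isl1 cells, and at 44.0 and 580 CPM in hair cell-like cells. In neuron-like cells it was 303 and 256 CPM, and in marginal-like cells 3.08 and 6.50 CPM from 3 and 7 UMIs.

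The 83 genes took their largest share of UMIs in neuron-like cells, followed by stria marginal-like cells, and hair cell-like cells were the sixth of 20 populations in each library. In the noise-only library the summed share was 8.30% (8.28 to 8.32) in neuron-like cells, 6.73% (6.69 to 6.78) in marginal-like cells and 3.38% (3.29 to 3.47) in hair cell-like cells. In the AAV-Isl1 library the same shares were 8.41% (8.39 to 8.42), 6.28% (6.24 to 6.33) and 3.52% (3.46 to 3.58). The order of the 3 classes was thus the same in both libraries, and their intervals did not overlap. Stria intermediate cell or melanocyte-like cells followed with 4.70 and 4.49%. Erythroid-like cells had the lowest share, 1.65% in noise-only and 1.93% in AAV-Isl1 ears, and macrophage-like cells were also low with 2.08 and 2.19%. Hemoglobin genes led the erythroid-like cluster, and the part of their UMIs in its low share was not tested. Neuron-like cells were 23.5 and 27.8% of all kept UMIs but 44.9 and 50.8% of the members' UMIs.

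**Figure D1:**
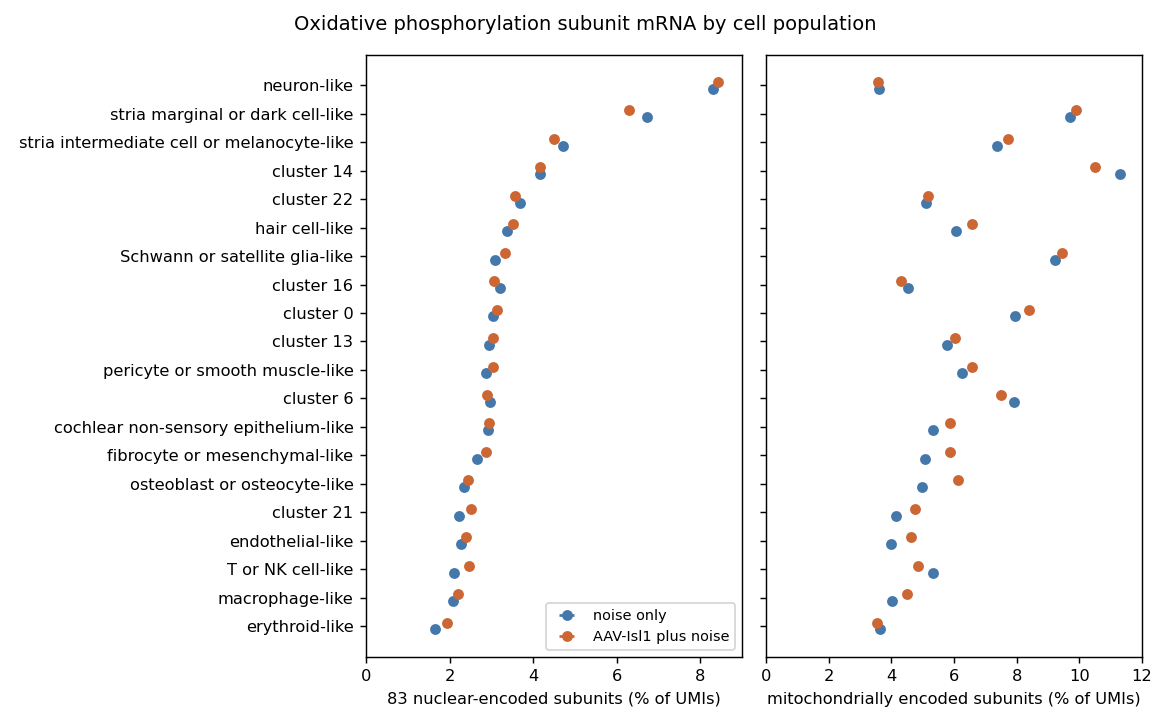
Share of UMIs from the 83 nuclear-encoded subunits (left, %) and from the 13 mitochondrially encoded subunits (right, %) in each of 20 populations, with 1 point per library; 95% counting intervals are drawn on the left and are mostly narrower than the points. Neuron-like cells are highest on the left, at 8.30 and 8.41%, and among the lowest on the right, at 3.62 and 3.56%.

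Over all other kept cells of the same library, the summed share was 2.66 times as high in noise-only neuron-like cells (2.65 to 2.67) and 2.68 times in AAV-Isl1 ones (2.67 to 2.69). For marginal-like cells the ratio was 1.58 (1.56 to 1.59) and 1.38 (1.37 to 1.39), and for hair cell-like cells 0.777 (0.756 to 0.798) and 0.762 (0.749 to 0.776). The comparison group matters for the last 2 classes, because neuron-like cells hold many UMIs of the pooled remainder. When each cell counted equally, by the mean of per-cell shares, the hair cell-like ratio turned to slightly above 1 (log2 0.03 and 0.05, against -0.36 and -0.39 on pooled UMIs). By that measure the marginal-like log2 ratio was 1.26 and 0.95, against 0.66 and 0.47. Neuron-like cells were also far deeper, with 10171.5 and 6515 UMIs at the median cell, against 2137.5 and 1954 in marginal-like and 1698 and 1125 in hair cell-like cells; the part of depth in the difference between classes was not tested.

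All 5 complexes followed the same order. In the noise-only library complex I took 2.89% of neuron-like, 2.23% of marginal-like and 1.23% of hair cell-like UMIs, and complex IV took 2.33, 1.97 and 0.761%. ATP synthase took 2.19, 1.77 and 1.04%, complex III 0.810, 0.708 and 0.317%, and complex II 0.0823, 0.0696 and 0.0289%. In the AAV-Isl1 library the neuron-like and marginal-like shares were 2.92 and 2.09% for complex I, 2.37 and 1.85% for complex IV and 2.20 and 1.62% for ATP synthase. Within hair cell-like cells ATP synthase stood above complex IV (1.04 against 0.761% and 1.08 against 0.846%), whereas in neuron-like and marginal-like cells complex IV was the larger of the pair.

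The 13 subunits read from mitochondrial DNA did not follow the nuclear ones in neuron-like cells. They took 3.62 and 3.56% of neuron-like UMIs, below the 9.69 and 9.90% of marginal-like and the 6.06 and 6.58% of hair cell-like cells. The mitochondrial over nuclear ratio was 0.436 and 0.424 in neuron-like cells, 1.44 and 1.58 in marginal-like cells and 1.79 and 1.87 in hair cell-like cells. Neuron-like cells were the population in which nuclear subunit UMIs outnumbered mitochondrial ones; in the other 19 populations the ratio was 1.38 or more in both libraries. Across the 20 populations the nuclear and mitochondrial shares had a Spearman correlation of 0.49 and 0.51, and of 0.74 and 0.73 over the 19 without neuron-like cells, as a description of populations that share a library and differ in depth. Cells with over 20% mitochondrial UMIs had been removed (525 and 436 barcodes), which bounds the mitochondrial share from above. Ribosomal protein genes, abundant nuclear-encoded mRNAs with another role, took 6.88 and 7.04% of neuron-like UMIs against 11.9 and 11.2% of those of all other cells.

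Among single members, 61 of the 80 measured in the noise-only library (at least 100 UMIs over all kept cells) were at least 2-fold higher in CPM in neuron-like cells than in all other cells, where 21.0% of all 12864 measured genes were. In the AAV-Isl1 library this held for 63 of 81, against 21.4% of all genes. The median member was 2.63-fold and 2.60-fold higher in neuron-like cells, beside 0.972 and 0.989 over all measured genes. At least 2-fold lower were Cox4i2, Cox6b2 and Cox7a1 in both libraries (3 members, against 28.6% of genes, and 4 with Cox6a2 in the AAV-Isl1 library, against 28.2%). All 4 are isoform genes of complex IV known from particular tissues. By complex, 29 and 31 of 36 complex I members, 14 of 17 ATP synthase members in each library and 6 of 8 complex III members in each library passed the 2-fold line.

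Cox5a, a subunit on the matrix side of complex IV, was the member with the highest ratio in neuron-like cells. It was at 3960 CPM in noise-only and 3820 CPM in AAV-Isl1 neuron-like cells, 5.85 and 5.61 times its level in all other cells. Cox7b, a small membrane subunit of complex IV, followed with 1640 and 1710 CPM (4.95-fold and 4.81-fold), and Ndufa4 with 4730 and 4790 CPM (4.56-fold and 4.46-fold). Atp5g1, 1 of 3 genes for the proton-carrying ring subunit of ATP synthase, was at 2060 and 2140 CPM (4.31-fold and 4.47-fold). Marginal-like cells did not share these heights: Cox5a was at 1720 and 1560 CPM there, Cox7b at 668 and 721 CPM, Ndufa4 at 2330 and 2170 CPM and Atp5g1 at 976 and 853 CPM. In hair cell-like cells Cox5a was at 484 and 591 CPM, Cox7b at 308 and 340 CPM, Ndufa4 at 1180 and 1280 CPM and Atp5g1 at 534 and 451 CPM. All 4 genes were higher in neuron-like cells than in both other classes in each library.

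The most abundant members showed how unevenly the subunits of a complex are spread. Cox8a, the widely expressed Cox8 form and the member with the most UMIs, was at 3380 and 3520 CPM in neuron-like, 4010 and 3750 CPM in marginal-like and 2200 and 2550 CPM in hair cell-like cells, so it was higher in marginal-like than in neuron-like cells. Cox6c, another small complex IV subunit, was at 3160 and 3210 CPM in neuron-like and 3130 and 2950 CPM in marginal-like cells, but 742 and 770 CPM in hair cell-like cells. Since these 3' libraries give about 1 UMI per captured mRNA molecule, levels are compared between genes without scaling to length. Among complex III members, Uqcrh, which supports the contact with cytochrome c, was at 1900 and 1910 CPM in neuron-like and 1430 and 1330 CPM in marginal-like cells. Uqcr10 was at 1570 and 1660 against 1270 and 1290 CPM. In complex I, Ndufb9 was at 1380 CPM in neuron-like cells of each library and at 1190 and 1210 CPM in marginal-like cells, and Ndufa13 was at 1120 and 1140 against 1140 CPM in each library, with no gap between the classes. In ATP synthase, Atp5j2 was at 1940 and 2010 against 1480 and 1380 CPM, while Atp5l was at 1540 CPM in neuron-like cells of each library against 1550 and 1350 CPM. The complex II genes were low throughout: Sdhb, its iron-sulfur subunit, was at 351 and 345 CPM in neuron-like and 279 and 235 CPM in marginal-like cells, and Sdha, the flavoprotein, at 281 and 269 against 213 and 220 CPM.

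Of 80 members compared directly, 53 had a level in neuron-like cells above that in marginal-like cells in both libraries, with counting intervals that excluded a ratio of 1, and 10 had one below. Of all 12752 genes with at least 100 UMIs in each library, 30.1% were above and 15.7% below by the same rule, and an interval is narrower the more UMIs a gene has. The 10 were Sdhc, Atp5e, Cox6b2, Cox7a1, Cox8a, Cox8b, Uqcr11, Uqcrb, Ndufs6 and Ndufa1, so they came from all 5 complexes. Sdhc, a membrane anchor of complex II, was at 99.0 and 88.7 CPM in neuron-like and 152 and 150 CPM in marginal-like cells (neuron-like over marginal-like 0.652 and 0.593). Atp5e, the epsilon subunit of the ATP synthase stalk, was at 1330 and 1390 against 2130 and 1980 CPM (0.624 and 0.704). Ndufs6, a zinc-binding accessory subunit of complex I, was at 730 and 772 against 955 and 1010 CPM (0.763 and 0.767), and Ndufa1, an X-linked membrane subunit, at 546 and 581 against 751 and 701 CPM. In the plot of both class ratios, Cox7a1 and Cox8b among these 10 lie high on the left, apart from the main cloud.

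**Figure D2:**
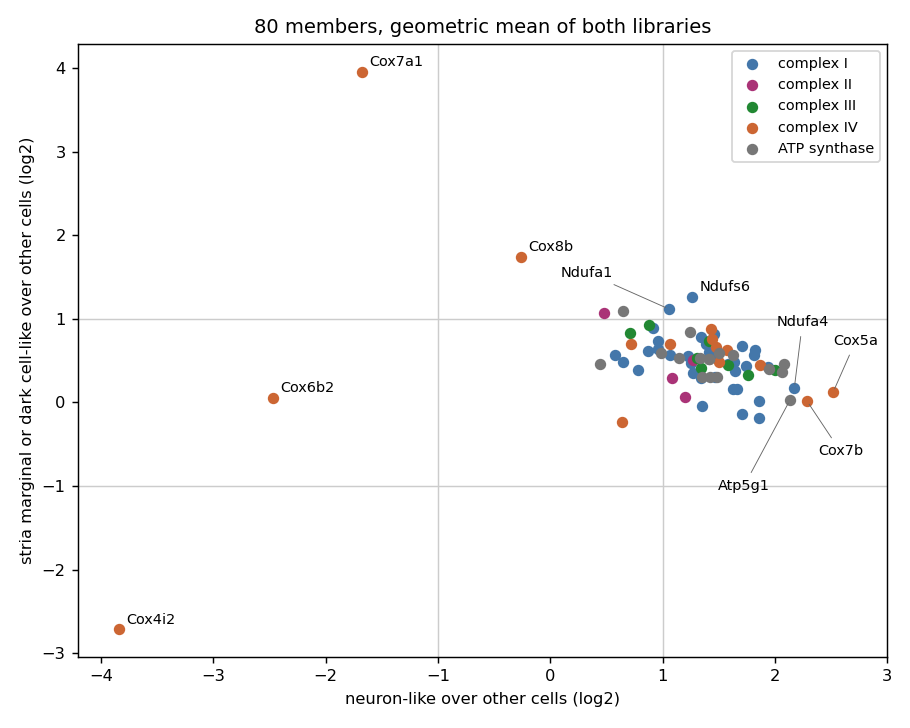
Level in neuron-like over all other cells (x axis, log2) against level in stria marginal-like over all other cells (y axis, log2) for 80 members, as the geometric mean of both libraries, coloured by complex; grey lines mark 2-fold. Most members lie right of 0 and slightly above 0, while Cox7a1 and Cox8b lie high on the left and Cox4i2 is low on both axes.

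In marginal-like cells most members were higher than elsewhere, by less than in neuron-like cells at the median, and Cox7a1 stood far above the rest at 16.1-fold and 14.9-fold. In the noise-only library 75 of 80 were above their level in all other cells and 8 were at least 2-fold higher, where 5.45% of all measured genes were. In the AAV-Isl1 library 72 of 81 were above and 4 were 2-fold higher, beside 5.19% of all genes. The 4 were Sdhc, Cox7a1, Cox8b and Ndufs6, and the noise-only library added Atp5e, Uqcrb, Ndufv3 and Ndufa1. At least 2-fold lower were Cox4i2 in the noise-only library (1 member, 35.7% of all genes) and Cox4i2 and Cox6a2 in the AAV-Isl1 library (2 members, 32.0%). The median member was 1.51-fold and 1.33-fold higher, beside 0.678 and 0.719 over all measured genes. Cox7a2l, which helps to join complexes III and IV, was among the few below 1, at 249 and 221 CPM (0.867 and 0.834 of its level in other cells). Ndufs1, the largest iron-sulfur subunit of complex I, was at 62.5 CPM in the noise-only library (0.775-fold). In the AAV-Isl1 library it was at 78.0 CPM (1.0-fold).

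In hair cell-like cells most members lay below the pooled remainder, by pooled UMIs. At least 2-fold higher was Atp5mpl alone, a small membrane subunit of ATP synthase, in each library (1 member of 80 and 1 of 81, beside 16.1 and 14.1% of all genes). It was at 1350 and 1470 CPM in hair cell-like cells, 2.17-fold above other cells in each library, close to its 1530 and 1500 CPM in neuron-like cells and above its 940 and 835 CPM in marginal-like cells. Atp5j, a coupling subunit of the ATP synthase stalk, was at 1650 and 1550 CPM, 1.79-fold and 1.62-fold higher, and in the noise-only library hair cell-like cells were its highest population. At least 2-fold lower were 13 members in the noise-only library, beside 36.8% of genes, and 9 in the AAV-Isl1 library, beside 31.5%. Among them were Cox5a (0.333 and 0.377 of the level in other cells), Cox6c (0.455 and 0.434) and Cox7b (0.481 and 0.461). With 90 noise-only hair cell-like cells, rare members rested on few UMIs, such as 5 for Sdhc and 2 for Sdhd.

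Isoform use differed sharply between populations. The clearest case was Cox7a1 (chr7:30184144-30186078, plus strand, GRCm38), which marked stria marginal-like cells. It was at 642 CPM (592 to 694) in noise-only and 615 CPM (569 to 664) in AAV-Isl1 marginal-like cells, and the next population, the unnamed cluster 22 (led by Fxyd2, Kcnk2 and Cldn11), was at 177 and 157 CPM. The median population was at 38.4 and 36.3 CPM. Of all UMIs of Cox7a1, Cox7a2 and Cox7a2l together, Cox7a1 took 22% (20.5 to 23.6) and 22.2% (20.7 to 23.7) in marginal-like cells, 13.4 and 12.2% in cluster 22, and 0.600 and 1.13% in neuron-like cells. Cox7a2, its widely expressed counterpart, remained the main form there, at 69.4 and 69.8%. With every cell thinned to 1000 UMIs, 41.3% of 286 and 41.7% of 444 marginal-like cells had a Cox7a1 UMI, against 9.05 and 7.96% of intermediate-like and 1.26 and 2.53% of neuron-like cells; unthinned, 65.2 and 57.6% of marginal-like cells had one. The 11 marginal markers summed to 16.3 and 16.7% of their marginal-like level in intermediate-like cells, where Cox7a1 was at 14.6 and 13.5% of its own. In cluster 22 the markers were at 4.56 and 4.91% and Cox7a1 at 27.5 and 25.5%. Intermediate-like cells thus held Cox7a1 in about the proportion of the other marginal genes, and cluster 22 held more.

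Cox8b (chr7:140898945-140900446, minus strand) was highest in stria intermediate cell or melanocyte-like cells, the pigmented cells of the stria. It was at 671 CPM (638 to 704) and 670 CPM (639 to 702) there, 16.8 and 17.0% of all Cox8 UMIs, followed by marginal-like cells at 340 CPM (305 to 379) and 272 CPM (242 to 305), 7.82 and 6.76% of Cox8 UMIs. The median population was at 22.7 and 32.7 CPM. In marginal-like cells the 12 intermediate markers summed to 13.6 and 10.5% of their level in intermediate-like cells, while Cox8b was at 50.7 and 40.6% of its own. Tyrp1 and Pmel, melanocyte genes, had no UMI in noise-only marginal-like cells, and Tyrp1 had none in AAV-Isl1 ones. Neither was among the 9 markers that passed in the intermediate-like cluster itself. The part of intermediate-cell RNA in the marginal-like Cox8b level was not tested. Neuron-like cells had Cox8b at 87.8 and 82.0 CPM, 13.1 and 12.2% of the intermediate-like level, where the markers were at 0.864 and 0.853%. Both muscle-type forms, Cox7a1 and Cox8b, were thus highest in stria-like classes, but not in the same one.

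The 250 bases before the start of Cox7a1 and Cox8b and of their widely expressed counterparts are shown because the forms of a pair differ most in where they are used. They are from RefSeq on GRCm38.p6, written 5' to 3' in the direction of the gene, with each CpG in capitals. The Cox7a1 stretch (chr7:30183921-30184170, plus strand) is 51.2% GC with 4 CpGs, that of Cox7a2 (chr9:79759854-79760103, minus strand) 54.8% with 14, that of Cox8b (chr7:140900447-140900696, minus strand) 47.2% with 1, and that of Cox8a (chr19:7217617-7217866, minus strand) 52.8% with 11.
Cox7a1: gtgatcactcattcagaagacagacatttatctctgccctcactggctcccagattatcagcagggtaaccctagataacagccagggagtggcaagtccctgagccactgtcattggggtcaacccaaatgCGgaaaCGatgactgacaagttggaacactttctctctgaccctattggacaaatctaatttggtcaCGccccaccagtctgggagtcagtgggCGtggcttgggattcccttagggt
Cox7a2: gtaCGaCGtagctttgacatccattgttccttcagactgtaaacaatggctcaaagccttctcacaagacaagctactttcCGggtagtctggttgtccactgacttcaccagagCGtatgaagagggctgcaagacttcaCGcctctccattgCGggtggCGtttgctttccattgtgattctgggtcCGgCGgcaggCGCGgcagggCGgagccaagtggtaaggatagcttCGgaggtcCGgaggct
Cox8b: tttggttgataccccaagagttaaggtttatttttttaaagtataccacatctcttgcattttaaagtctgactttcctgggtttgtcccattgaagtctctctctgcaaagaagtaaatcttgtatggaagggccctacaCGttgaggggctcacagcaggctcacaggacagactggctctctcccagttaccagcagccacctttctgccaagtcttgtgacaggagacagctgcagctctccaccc
Cox8a: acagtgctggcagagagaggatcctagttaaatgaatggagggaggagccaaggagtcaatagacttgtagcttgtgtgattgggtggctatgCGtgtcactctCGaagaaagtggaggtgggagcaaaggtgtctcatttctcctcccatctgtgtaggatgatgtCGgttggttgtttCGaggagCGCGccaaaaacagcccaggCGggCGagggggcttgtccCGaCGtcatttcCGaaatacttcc
In both pairs the form used in few populations has fewer CpGs than the one used throughout. The median was 14 CpGs over the 69 members matched in the promoter table and 6 over all 27018 promoters in it, with 56.4 and 52.0% GC.

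Cox4i2 (chr2:152754173-152765037, plus strand) marked pericyte or smooth muscle-like cells, the contractile cells of vessel walls. It was at 346 CPM (315 to 379) and 340 CPM (305 to 378), 31.2% (28.9 to 33.6) and 30.6% (27.9 to 33.4) of all Cox4 UMIs, against a median of 5.90 and 6.93 CPM over populations. The 2 clusters of that class differed: cluster 12 was at 561 and 463 CPM and cluster 19 at 175 and 219 CPM. Ndufa4l2, a paralog of Ndufa4 known from hypoxia and outside the rule, was high in the same clusters, at 1050 and 814 CPM in cluster 12 and 185 and 144 CPM in cluster 19. Over the class it took 49.2 and 39.3% of the UMIs of Ndufa4 and Ndufa4l2 together. Endothelial-like cells, their neighbours in the vessel wall, had Cox4i2 at 8.72 and 7.83 CPM, 2.52 and 2.30% of the pericyte-like level, where the 11 pericyte markers stood at 0.893 and 2.22% of theirs.

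A second site of Cox4i2 was the cochlear non-sensory epithelium-like class, at 32.8 CPM (24.5 to 42.9) in noise-only and 76.9 CPM (62.3 to 93.9) in AAV-Isl1 ears. Pericyte markers were at 0.417 and 0.724% of their source level there, while Cox4i2 was at 9.47 and 22.6% of its own. Cells with a Cox4i2 UMI carried Otol1, an otoconia and otolith matrix gene, in 14 of 38 and 34 of 62 cases, against 47 of 942 and 139 of 856 of the class's other cells. Rgs5, a pericyte gene, was in 0 of 38 and 3 of 62. The 0 of 38 allows a share of up to 7.89%. Otol1 was found in 61 of 980 noise-only and 173 of 918 AAV-Isl1 cells of the class; its part in the difference between libraries was not tested.

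Cox6a2 (chr7:128205435-128206387, minus strand) was nearly absent, with 49 and 113 UMIs over all kept cells. In marginal-like and hair cell-like cells it had 0 UMIs, which allows up to 3.08 and 2.79 CPM in marginal-like and 18.9 and 7.91 CPM in hair cell-like cells (3 UMIs over the class total), so Cox6a1 supplied 640 of 640 and 720 of 720 Cox6a UMIs of marginal-like cells. Neuron-like cells had 18 and 16 Cox6a2 UMIs, 0.282 and 0.192% of Cox6a UMIs. Its level was highest in the T or NK cell-like class, at 68.2 and 60.7 CPM from 14 and 51 UMIs. That was 24.1% (13.9 to 37.2) and 21.4% (16.4 to 27.2) of its Cox6a UMIs, from 6 of 192 and 25 of 733 cells. The class was mixed: the immunoglobulin genes Igkc and Iglc2 and the plasma cell gene Mzb1 were among its leading genes beside Cd3g and Cd3e, and Cd79a, a B cell gene, was in 50 of 192 and 158 of 733 of its cells. The cells with Cox6a2 were set apart from their class: Siglech, a gene known from plasmacytoid dendritic cells, was found in 3 of 6 and 20 of 25 of them, against 0 of 186 and 6 of 708 of the class's other cells, and Cd3e, a T cell gene, in 1 of 6 and 0 of 25. Cd79a was in 0 of 6 and 0 of 25. The 0 of 186 allows a share of up to 1.61%, the 0 of 25 up to 12% and the 0 of 6 up to 50%. Macrophage-like cells had 12 and 22 Cox6a2 UMIs.

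Other isoform genes were low. Cox6b2 was highest in the unnamed clusters 6 and 13, at 90.1 and 116 CPM and at 76.3 and 86.2 CPM, 14.1 and 17.8% and 11.8 and 13.2% of Cox6b UMIs, and was 0.294 and 0.235% of them in neuron-like cells. Cluster 6 is led by the transporters Slc6a13, Slc22a2 and Slc22a6, and cluster 13 by Prg4 and Slc47a1. Cox7b2 had 4 UMIs in neuron-like cells of each library and Cox8c had 3 and 1 UMIs in all. The 3 genes for the ring subunit of ATP synthase, which give the same mature protein, were used unevenly: Atp5g1 gave 49.7% (49.2 to 50.3) and 50.8% (50.3 to 51.3) of their UMIs in neuron-like cells, 37.0 and 36.2% in marginal-like cells and 40.5 and 32.3% in hair cell-like cells. Atp5g2 gave 17.5 and 17.0% in neuron-like cells but 31.2 and 31.8% in marginal-like and 38.6 and 43.2% in hair cell-like cells. Atp5g3 was at 32.8 and 32.2% in neuron-like and 31.9 and 32.0% in marginal-like cells.

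**Figure D3:**
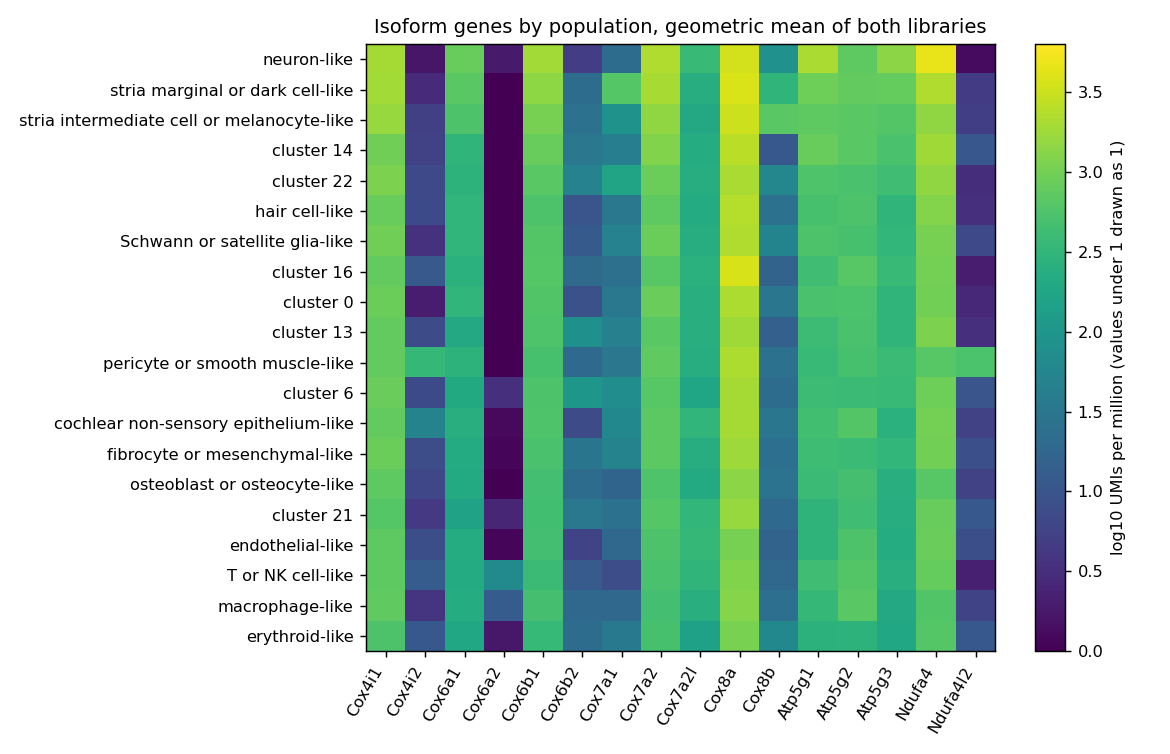
Level of 16 isoform genes (columns) in 20 populations (rows) as log10 CPM, geometric mean of both libraries, values under 1 drawn as 1. Bright single fields stand out for Cox4i2 and Ndufa4l2 in pericyte or smooth muscle-like cells and for Cox7a1 in marginal-like cells. Cox8b is brightest in intermediate-like cells, followed by marginal-like cells.

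Between the libraries, the summed members were lower in AAV-Isl1 than in noise-only marginal-like cells and close to equal in the other 2 classes. The ratio of shares, AAV-Isl1 plus noise over noise only, was 0.933 (0.923 to 0.943) in marginal-like cells, 1.01 (1.01 to 1.02) in neuron-like cells and 1.04 (1.01 to 1.08) in hair cell-like cells. Over all kept cells it was 1.06, beside the larger part that neuron-like cells took of the AAV-Isl1 library's UMIs (27.8 against 23.5%). Among the 20 populations the ratio ran from 0.933 in marginal-like to 1.17 in erythroid-like cells. Stria intermediate-like cells were also lower in the AAV-Isl1 library, at 0.955 (0.947 to 0.963), as were the unnamed clusters 16 (0.955) and 22 (0.965). In marginal-like cells each complex was lower by a like amount: the ratio was 0.938 (0.921 to 0.956) for complex I, 0.953 (0.856 to 1.06) for complex II, 0.933 (0.902 to 0.964) for complex III, 0.942 (0.924 to 0.961) for complex IV and 0.916 (0.897 to 0.936) for ATP synthase. The interval of complex II, which rested on 679 and 714 UMIs, included 1. Mitochondrially encoded subunits (1.02) and ribosomal protein genes (1.02) did not show the lower level in these cells.

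The marginal-like difference depended on the depth of the cells compared. Among cells of 500 to 1000 UMIs the ratio was 0.786 (0.758 to 0.814), with shares of 10.0% in 102 noise-only and 7.86% in 91 AAV-Isl1 cells. Among cells of 1000 to 2000 UMIs it was 0.811 (0.791 to 0.832), with shares of 7.66 and 6.22%, and among cells of 2000 to 5000 UMIs 0.969 (0.956 to 0.983), with shares of 6.34 and 6.15%. The shallow noise-only cells also differed in other ways: Malat1, a nuclear RNA, was at 4670 CPM in those of 500 to 1000 UMIs and 18600 CPM in those of 2000 to 5000, and Kcnq1 at 68.1 and 299 CPM, while the shallow AAV-Isl1 cells had Malat1 at 13800 and Kcnq1 at 226 CPM. Kcne1, also a marker of the class, changed less, at 1650 and 1840 CPM in these noise-only ranges. In AAV-Isl1 cells Kcne1 was at 2190 CPM at 500 to 1000 UMIs and 1610 CPM at 2000 to 5000. Whether depth or cell integrity set the difference was not tested. In neuron-like cells the ratio was 1.16 (1.14 to 1.17) at 2000 to 5000 UMIs and 1.02 (1.02 to 1.03) at 5000 UMIs and over, and in hair cell-like cells it was 1.02 (0.979 to 1.06) at 1000 to 2000 UMIs.

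**Figure D4:**
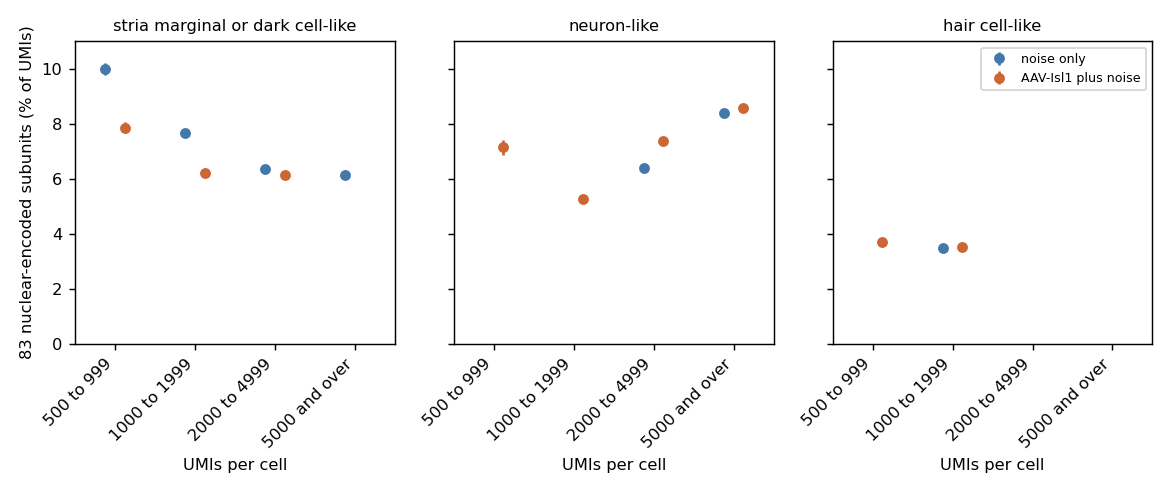
Share of UMIs from the 83 members (y axis, %) by UMIs per cell (x axis, 4 ranges) in the 3 classes, with 1 point per library and range of at least 20 cells and 95% counting intervals. In marginal-like cells the noise-only points run from 10.0% to 6.13% with depth and lie well above the AAV-Isl1 points in the 2 shallowest ranges.

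Genes of other cell types differed between the libraries as well. In marginal-like cells the 12 intermediate markers summed to 4560 CPM in noise-only and 3340 CPM in AAV-Isl1 ears, and the 15 Schwann or satellite glia markers to 2260 and 3930 CPM, with none at 0. The 12 neutrophil markers summed to 6.15 and 365 CPM, with 10 at 0 in noise-only ears and 5 (Csf3r, Ltf, Elane, Mpo and Cxcr2) in AAV-Isl1 ears. In neuron-like cells the neutrophil sum was 1.90 and 86.6 CPM, with 9 and 2 (Ly6g and Mpo) at 0, and the 7 erythroid markers summed to 1210 and 2960 CPM. In hair cell-like cells the neutrophil sum was 12.6 and 1080 CPM, with 10 and 4 (Ltf, Elane, Mpo and Mmp8) at 0, and the 16 non-sensory epithelium markers summed to 6120 and 4480 CPM. Their part in the members' ratios was not tested.

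Most single members were also lower in AAV-Isl1 marginal-like cells. Of 78 with at least 100 UMIs in the class over both libraries, 67 had a ratio below 1, where 52.8% of all measured genes did. A counting interval wholly below 1 was found for 26 members, beside 7.32% of all genes, and one wholly above for none, beside 6.61%. An interval is narrower the more UMIs a gene has, which limits the comparison with all genes. At least 20% lower were 3 members, where 8.4% of all 2799 measured genes were, and at least 25% higher 0, where 11.4% were. The 3 were Ndufs3, Uqcrc2 and Cox8b. Ndufs3, a core subunit of complex I, was at 335 CPM (327 UMIs) and 254 CPM (274 UMIs), a ratio of 0.759 (0.644 to 0.894). Uqcrc2, a core subunit of complex III, was at 211 and 163 CPM, a ratio of 0.770 (0.626 to 0.946), and Cox8b had a ratio of 0.799 (0.681 to 0.938), beside the lower sum of intermediate markers given above. Ndufb6 lay just outside the line at 0.803, and without the 5 cells with the most UMIs Cox8b was at 0.824, also outside it. Ndufs1 was the highest, at 62.5 and 78.0 CPM, just under the line of 25%, with an interval of the ratio (0.886 to 1.76) that included 1; without the 5 cells with the most UMIs it was 1.41 and passed. Then came Ndufa9 at 1.19, Sdhd at 1.12 and Cox7b at 1.08. Cox7a1, the isoform that marks these cells, was at 0.958 (0.858 to 1.07). Under a stricter cell filter (500 genes, 10% mitochondrial UMIs), 8 of 75 measured members were at least 20% lower, where 12.8% of 1457 measured genes were.

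In neuron-like cells, with 655885 and 850286 member UMIs, ratios were the most precisely counted and the closest to 1. Of 78 measured members, 39 were above and 39 below 1, beside 48.5 and 51.5% of all measured genes. A counting interval wholly above 1 was found for 26 members and one wholly below for 15, beside 8.73 and 7.88% of all genes. The narrower intervals of genes with many UMIs limit this comparison as well. At least 25% higher was Cox7a1 alone (1 member, where 6.24% of 10223 genes were), and at least 20% lower were 0, where 2.73% were. Cox7a1 was at 15.7 CPM (124 UMIs) and 30.3 CPM (306 UMIs), a ratio of 1.93 (1.56 to 2.39). Its level was low beside its 642 and 615 CPM in marginal-like cells, and the 11 marginal markers stood at 153 and 201 CPM in the same neuron-like cells. Kcne1, the marginal potassium channel subunit, was found in 0 of 97 noise-only and 20 of 194 AAV-Isl1 neuron-like cells with a Cox7a1 UMI, and in 3 of 713 and 20 of 1359 of those without. The 0 of 97 allows a share of up to 3.09%. The part of marginal RNA in the ratio was not tested. The other extremes were small: Ndufv3 at 1.14 (1.09 to 1.19), Ndufa2 at 1.08, Uqcr11 at 1.08, and on the low side Uqcrc2 at 0.891 (0.842 to 0.943), Sdhc at 0.896 and Ndufs1 at 0.900. The neuron-like clusters 8 and 20 had summed shares of 8.15 and 8.29% and of 8.62 and 8.79%, and the small cluster 27 had 7.89% from 8 cells and 7.07% from 54.

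In hair cell-like cells 58 members had at least 100 UMIs, 36 with a ratio above 1, where 52.0% of all measured genes had one. At least 25% higher were Cox5b, Ndufs7 and Atp5md (3 members, where 11.6% of 887 genes were), and at least 20% lower were Atp5c1, Ndufb5, Cox6a1 and Ndufc2 (4 members, 12.9%). The counts moved with the processing. With the libraries scaled by the median gene ratio, 8 of 58 were higher and 2 lower, beside 15.3 and 8.57% of genes. Under the stricter cell filter 6 of 64 were higher and 2 lower (10.7 and 11.5%), and with no doublets removed 6 of 65 and 1 (11.3 and 11.4%). Cox5b, a zinc-binding subunit of complex IV, was at 295 CPM (47 UMIs) and 483 CPM (183 UMIs), a ratio of 1.63 (1.18 to 2.30). Atp5c1, the rotating gamma subunit of ATP synthase, was at 440 and 298 CPM, a ratio of 0.677 (0.498 to 0.926), and Ndufb5 at 566 and 404 CPM, 0.713 (0.546 to 0.936). Without the 5 cells with the most UMIs Ndufs7 moved from 1.43 to 1.79, Ndufc2 from 0.797 to 0.904 and Cox6a1 from 0.780 to 0.877, so the last 2 no longer passed, and Atp5g3 moved from 1.24 to 1.35 and passed. The interval excluded 1 for 2 members above and 2 below, beside 6.76 and 5.3% of all measured genes, and the rest could not be told from equal at this depth.

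**Figure D5:**
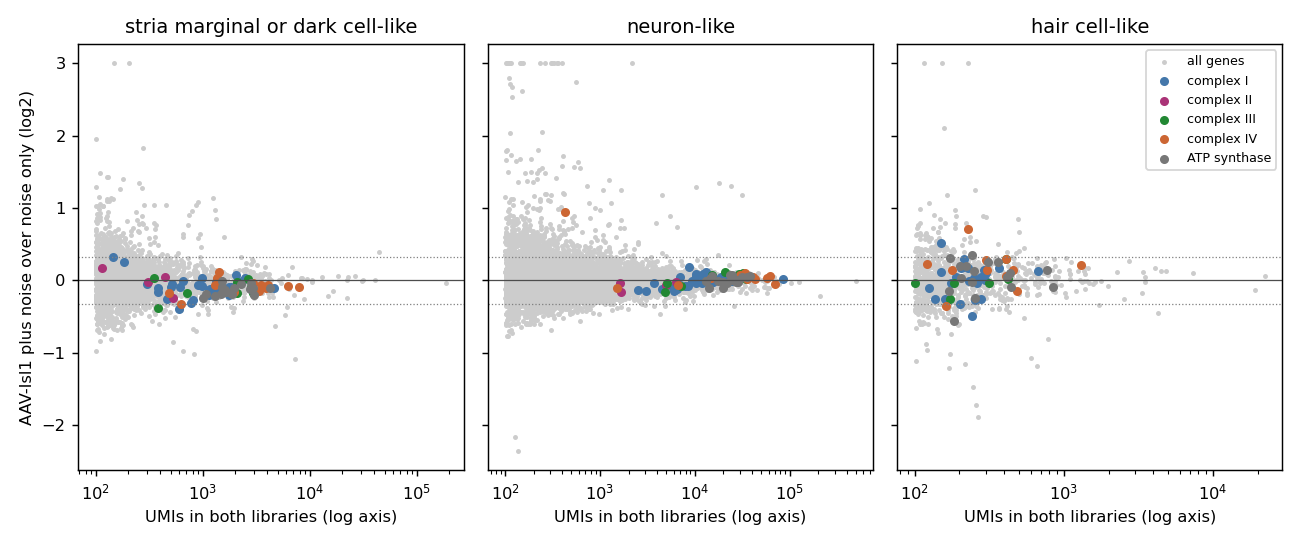
Ratio of AAV-Isl1 plus noise over noise only (y axis, log2; values beyond 3 in either direction drawn at 3) against UMIs in both libraries (x axis, log scale) in the 3 classes; grey points are all genes with at least 100 UMIs, coloured points are members, and dotted lines mark 25% higher and 20% lower. Members sit slightly below 0 in marginal-like cells and on 0 in neuron-like cells, where Cox7a1 stands above the line.

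Other genes of mitochondrial energy supply were read beside the members. Of 47 measured assembly factors, which build the complexes, 24 and 25 were at least 2-fold higher in neuron-like cells than elsewhere, where 21.0 and 21.4% of all measured genes were. In marginal-like cells 1 was in each library (Cmc2 in noise-only, Nubpl in AAV-Isl1), beside 5.45 and 5.19% of all genes. Uqcc2, for complex III, was at 742 and 759 CPM in neuron-like and 512 and 493 CPM in marginal-like cells, and Cox17, a copper carrier for complex IV, at 530 and 587 against 592 and 593 CPM. Of 17 tricarboxylic acid cycle and pyruvate dehydrogenase genes, 14 and 13 were 2-fold higher in neuron-like cells, and 1 (Ogdh) and 0 in marginal-like cells, beside the same shares of all genes. Mdh2, malate dehydrogenase, was at 733 and 695 CPM in neuron-like against 331 and 265 CPM in marginal-like cells. Glycolysis and lactate genes were also high in neuron-like cells (13 of 20 and 13 of 21 at least 2-fold), whereas in hair cell-like cells 10 of 20 and 11 of 21 were at least 2-fold lower, beside 36.8 and 31.5% of all genes. Ldhb, the lactate dehydrogenase form of oxidative tissue, was at 2310 and 2200 CPM in neuron-like, 2290 and 2030 CPM in marginal-like and 1110 and 1020 CPM in hair cell-like cells. Atpif1, the ATP synthase inhibitor, was at 1700 and 1840, 662 and 673, and 710 and 891 CPM in the same order. Ndufab1, a complex I subunit outside the rule, was at 1070 and 1080 CPM in neuron-like and 682 and 577 CPM in marginal-like cells.

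Of 15 regulators of mitochondrial biogenesis, 4 and 5 were at least 2-fold higher in neuron-like cells, beside 21.0 and 21.4% of all measured genes. At least 2-fold lower were 2 and 1, beside 28.6 and 28.2%. The median regulator was at 1.19 and 1.30 times its level in other cells. Those named below were picked by a high level or a high class ratio. Ppargc1a, a coactivator of mitochondrial biogenesis, was at 234 and 226 CPM in neuron-like cells (4.47-fold and 4.10-fold above other cells) and at 63.6 and 76.2 CPM in marginal-like cells. Esrrg, an estrogen-related receptor, was at 128 and 129 CPM in neuron-like cells, 68.8-fold and 53.9-fold above others, and at 6.15 and 6.50 CPM in marginal-like cells. Its relative Esrrb was at 169 and 175 CPM in marginal-like and 4.43 and 6.33 CPM in neuron-like cells; Esrrb is among the markers that named the marginal-like class, so its place there is not a finding. Esrra was 2.35-fold and 2.74-fold and Ppargc1b 2.45-fold and 2.74-fold higher in neuron-like cells. In neuron-like cells Esrrg had a ratio between libraries of 1.01 (0.928 to 1.10), and Esrrb in marginal-like cells one of 1.03 (0.833 to 1.28).

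Letters known from promoters of such genes were searched on both strands in the 250 bases before the start of the 69 matched members. The NRF1 site, by its palindromic core, was in 4 members (Atp5g2, Atp5k, Cox6a1 and Ndufa11), 5.8% beside 0.781% of all promoters. The estrogen-related receptor site TNAAGGTCA was in 2 (Atp5g3 and Ndufb4), 2.90% beside 1.14%, and the CRE site TGACGTCA in 4 (Ndufa10, Ndufa11, Ndufb2 and Uqcrfs1), 5.8% beside 1.62%. The ETS site CCGGAAGT was in 3 (Atp5h, Uqcr11 and Uqcrh), 4.35% beside 2.93%, the YY1 letters AANATGGCG in 1 (Ndufb11), 1.45% beside 1.12%, and TATAAA in 7, 10.1% beside 13%. None of these was in the 4 stretches printed above. A match is a run of letters, not a shown site of binding. The NRF1, CRE, ETS and YY1 letters contain CpGs, of which members had 14 at the median against 6 over all promoters. The part of CpG content in these shares was not tested.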

How the data were processed

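Raw UMI counts per gene and barcode were used as deposited. Cell Ranger 5.0, STAR, Seurat 3.2.2 and mm10 (GRCm38) are named in the submitters' processing notes, and the matrix header names Cell Ranger 5.0.1; how reads shared with near-identical pseudogenes or paralogs were counted is not given in the sources used here. Barcodes were kept from 300 genes up and to a mitochondrial share of 20%, and Scrublet doublets were removed (1197, 6.00%, in noise-only and 827, 3.65%, in AAV-Isl1). The Scrublet threshold of 0.2 was chosen after seeing the data, because the automatic one called 0 doublets. Counts were scaled to 10000 UMIs, logged and clustered with scanpy 1.11.5 and leidenalg 0.10.2 (2000 variable genes per library, 50 principal components, 15 neighbours, resolution 1.0), without the members, mt- genes and Isl1. A cluster was named when at least 3 of a class's markers were 4-fold higher and found in 10% of its cells, with a class marker among its top 10 genes or, a rule added after seeing the data, at least 5 such markers.

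Totals were 38330528 UMIs in the noise-only matrix and 40268563 in the AAV-Isl1 matrix. Shares have exact Clopper-Pearson intervals, CPM values exact Poisson intervals and ratios exact conditional binomial intervals, computed with scipy 1.17.1. These cover counting error only, at 95%. With 1 library per group no test was run; counts of members past a fold (25% higher or 20% lower between libraries, 2-fold between classes, from 100 UMIs) stand beside the same count over all genes. The interval code was tested on simulated data. The members and lists were chosen with earlier results of these data known. Named with values are the 3 members with the most UMIs per complex, the isoform genes, the 4 highest and 4 lowest members per class by either ratio, and the top genes and class-high regulators of the other lists; further genes were named after their values were seen. Some genes that the rule names are not reported here. Gene coordinates are from GENCODE vM21, promoters from RefSeq. Alternatives covered filters, doublets, resolution, depth, denominator, scaling and thresholds.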

Additional observations from a re-analysis of the deposited data

Results flagged for a closer look

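Under the same contrast the summed members were lower in marginal-like cells and close to equal in hair cell-like and neuron-like cells. The ratio of AAV-Isl1 plus noise over noise only was 0.933 in stria marginal-like cells, 1.04 in hair cell-like cells and 1.01 in neuron-like cells. With 1 library per group the difference between classes was not tested, and the marginal-like value was 0.969 among cells of 2000 to 5000 UMIs. Among cells of 1000 to 2000 UMIs the hair cell-like value was 1.02 (0.979 to 1.06), with an interval that included 1.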

How the results depend on the processing

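No paired analysis was possible because each group is a single pooled library. Of 184 alternative values, 106 stayed within the counting interval or within 1.5 times the count, 76 moved and 2 turned direction; the cause was not tested. Class ratios and ratios between libraries are log2 values here, noise-only before AAV-Isl1. Under the filter of 500 genes and 10% mitochondrial UMIs, the noise-only share was 6.99% in marginal-like and 8.22% in neuron-like cells, and the hair cell-like shares were 3.17 and 3.38%. Class ratios were then 0.64 and 0.35 (marginal-like), 1.21 and 1.20 (neuron-like) and -0.52 and -0.55 (hair cell-like), ratios between libraries -0.16 in marginal-like and 0.03 in neuron-like cells, and counts of members 8 lower (by 20% or more) in marginal-like and 6 higher (by 25% or more) and 2 lower in hair cell-like cells. Beside these counts stood 12.8% of all measured genes in marginal-like and 10.7 and 11.5% in hair cell-like cells. Cox4i2 took 26.8 and 25.6% of Cox4 UMIs in pericyte-like cells, and Cox8b 5.79% of Cox8 UMIs in AAV-Isl1 marginal-like cells. With no doublets removed, shares were 8.18 and 8.26% (neuron-like) and 3.18 and 3.39% (hair cell-like), class ratios 0.45 (marginal-like, AAV-Isl1), 1.39 and 1.40 (neuron-like) and -0.46 in each library (hair cell-like), with 1 member lower in neuron-like and 6 higher and 1 lower in hair cell-like cells. Over all measured genes the shares were 2.84% in neuron-like and 11.3 and 11.4% in hair cell-like cells. At resolution 0.5 the neuron-like class ratios were 1.40 and 1.41, the AAV-Isl1 share 8.44% and the ratio between libraries 0.02, and 2 members were lower in hair cell-like cells. With cells of at least 1000 UMIs, marginal-like shares were 6.47 and 6.18%, class ratios 0.50 and 0.33, and the ratio between libraries -0.07; class ratios were 1.40 and 1.41 in neuron-like and -0.45 and -0.52 in hair cell-like cells.

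By the mean of per-cell shares, marginal-like shares were 7.61 and 6.52%, class ratios 1.26 and 0.95, and the ratio between libraries -0.22. Neuron-like shares were 8.05 and 8.06%, class ratios 1.40 and 1.38, and the ratio between libraries 0.00. The hair cell-like class ratios turned direction, to 0.03 and 0.05. Without mitochondrial, ribosomal protein and hemoglobin UMIs in the denominator, shares were 8.18 and 7.67% (marginal-like), 9.29 and 9.43% (neuron-like) and 3.95 and 4.17% (hair cell-like), class ratios 1.26 in each library (neuron-like) and -0.41 and -0.43 (hair cell-like), and 1 member was higher in marginal-like cells. With the members and mitochondrial genes used for clustering, 2 members were lower in hair cell-like cells. With libraries scaled by the median gene ratio, 1 member was higher in marginal-like cells, the hair cell-like ratio was 0.11, and 8 members were higher and 2 lower there. From at least 20 UMIs, 2 members were higher and 1 lower in neuron-like and 8 higher in hair cell-like cells. At 1.5-fold, 0 were lower in marginal-like and 1 higher and 0 lower in hair cell-like cells.

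The depth limits single members in hair cell-like cells, where 58 of 83 reached 100 UMIs, and isoforms of few UMIs in every class. Classes rest on rebuilt clusters, and with 1 library per group no spread between mice is known.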

Other observations

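Among the other populations, the unnamed cluster 14, led by Them5, Igfbp6 and Ceacam10, had the next highest summed share after the neuron-like and stria-like classes, 4.17% in noise-only and 4.15% in AAV-Isl1 ears, and the highest mitochondrially encoded share of the 20 populations, 11.3 and 10.5%. It was also the population with the highest Ndufa13, a complex I subunit, at 1560 and 1510 CPM against a median of 655 and 676 CPM. Cox8a was at 4340 CPM (4210 to 4460) in noise-only and 3280 CPM (3180 to 3390) in AAV-Isl1 cells of the unnamed cluster 16, led by Crhbp, Vmo1 and Cndp1, while the summed share of that cluster was ordinary, 3.20 and 3.06%.

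The fibrocyte or mesenchymal-like class was uneven. Its cluster 7 had a summed share of 4.2% in noise-only and 3.53% in AAV-Isl1 ears, against 2.30 and 2.37% in cluster 4 and 1.96 and 2.12% in cluster 10. Cox7a1 was at 150 and 76.3 CPM in cluster 7 and at 26.7 and 27.7 CPM in cluster 4, and Cox5a at 1090 and 856 CPM against 298 and 335 CPM. Within marginal-like cells, Ndrg1, a stress-responsive gene also abundant in Schwann cells, was at 110 CPM in noise-only and 226 CPM in AAV-Isl1 ears, a ratio of 2.06 (1.63 to 2.61), beside the higher Schwann marker sum there.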
